A study of Mus musculus with 69 samples.

Results

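In macrophages given IL-4 for 24 h, 120 genes differed strongly in level between the mouse strains C57 and SPRET while the C57 and SPRET copies of the same genes were read at nearly equal levels inside hybrid F1 cells. The 120 genes were selected on these measured values. The parental difference in log2(TPM + 1), where TPM is a transcript level corrected for gene length and library size, had to exceed 1.5 in size, and the difference between alleles had to stay under 0.4 in each of 2 F1 libraries, with a mean allele value of at least 10. They are 120 of the 586 genes with such a parental difference and such an allele level, and 120 of the 24046 genes listed in both tables. Of them, 39 were higher in C57 and 81 were higher in SPRET. By type, 113 are protein-coding, 2 are small nucleolar RNAs and 5 are other noncoding RNAs.

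The cells were bone marrow-derived macrophages (BMDMs) from female mice of 8 to 12 weeks, grown for 7 days in M-CSF and left untreated (basal) or given 20 ng/ml of IL-4. C57 is C57BL/6J and SPRET is SPRET/EiJ, a wild-derived strain of Mus spretus. The 5-strain table adds BALB (BALB/cJ), NOD (NOD/ShiLtJ) and PWK (PWK/PhJ), each basal and at 24 h, with 3 libraries a group and 2 for basal PWK. A separate time course holds C57 and SPRET at 0, 1, 6 and 24 h with 2 libraries a group. The F1 C57 × SPRET mice carry 1 genome of each parent and gave 2 basal and 2 IL-4 libraries, each split by allele. Egr2 fl/fl mice (Egr2WT), which carry a floxed Egr2 gene, and LyzM-Cre Egr2 fl/fl mice (Egr2MKO), in which Cre is driven by the myeloid LyzM promoter, were sampled at the same 4 times with 2 libraries a group. The labels do not tie libraries to animals, so the p-values measure the spread between libraries, which may in part be technical.

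An F1 cell holds both parental genomes in 1 nucleus and exposes both alleles to the same regulators. A local (cis) sequence difference therefore persists between the alleles of an F1 cell, whereas a difference carried by diffusible factors or the cell's environment (trans) is shared by both alleles and leaves them balanced. A group of the 120 genes belongs to cholesterol synthesis, the mevalonate route from acetyl-CoA through HMG-CoA, isoprenoids and squalene to sterols. SREBP2, a membrane-bound transcription factor released when membrane sterol is low, drives these genes, and INSIG1 holds its escort SCAP in the endoplasmic reticulum when sterol is plentiful. IL-4 is the textbook inducer of alternative macrophage activation, with Arg1 and Retnla among its best known targets.

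Libraries of the time course and the 5-strain table held 5.7 to 24 M and 7.02 to 22.49 M tags (M, mega), and the Egr2 libraries 4.69 to 32.87 M. The depth of the F1 allele values is unknown. Replicates correlated at 0.995 to 0.998 in the 5-strain table, and at 0.966 to 0.988 in the F1 table, on the log2 scale across genes. No library repeated another. All 9 macrophage markers were detected in C57 and SPRET at 24 h, and their sum was 21739 to 22593 TPM in C57 and 40328 to 40635 in SPRET in the time course. Egr2 itself measured 99.5 to 101 TPM in Egr2WT and 4.72 to 7.05 TPM in Egr2MKO at 24 h. Between C57 and SPRET at 24 h, the summed mast cell and basophil markers measured 0.328 to 1.46 TPM against 12.5 to 14.6 TPM in the 5-strain table and 1.56 to 1.58 against 21.2 to 21.9 in the time course. The summed neutrophil markers were lower in C57 in the 5-strain table, at 80.9 to 96.7 against 250 to 275 TPM, and higher in C57 in the time course, at 188 to 194 against 72.8 to 92.8 TPM, with Ly6g and Retnlg at 0 throughout. At 24 h of the time course the summed dendritic cell markers measured 0.615 to 1.09 TPM in C57 and 7.72 to 8.51 in SPRET, T and NK cell markers 0.807 to 0.914 and 6.88 to 6.97, and stromal and endothelial markers 7.21 to 7.56 and 23.2 to 24.3. In the 5-strain table all these sums were lower in C57 too. The part of these cells in the results below was not tested.

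The values that chose the genes are a description and carry no test. The median parental difference was 1.92 among the 39 genes higher in C57 and -1.79 among the 81 higher in SPRET. The widest on the C57 side were Hilpda (4.76), Mmp12 (3.51), Lpl (3.28) and Cdkn1a (2.88), and among the widest on the SPRET side were Rnase2a (-3.57), Acat2 (-3.44) and Snord100 (-3.18). Balanced alleles were common: 55.0% of the 5768 genes with a mean allele value of at least 10 had both differences under 0.4. At the edge of the parental threshold, Tecpr1 (1.52) and Selenoh (-1.5) lay just inside, and Arhgap25 (1.47) and Nop56 (-1.498) just outside. At the allele threshold, Bnip3l was inside with a largest difference of 0.398, and Ubald1 was outside with 0.404. At the level threshold, Dusp12 (10.1) was inside and Mov10 (9.30) outside. The split by strain depended on how the libraries were scaled. With median-ratio scaling in place of TPM the same rule gave 96 genes, 84 of them shared, with 51 higher in C57 and 45 higher in SPRET.

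**Figure D1:**
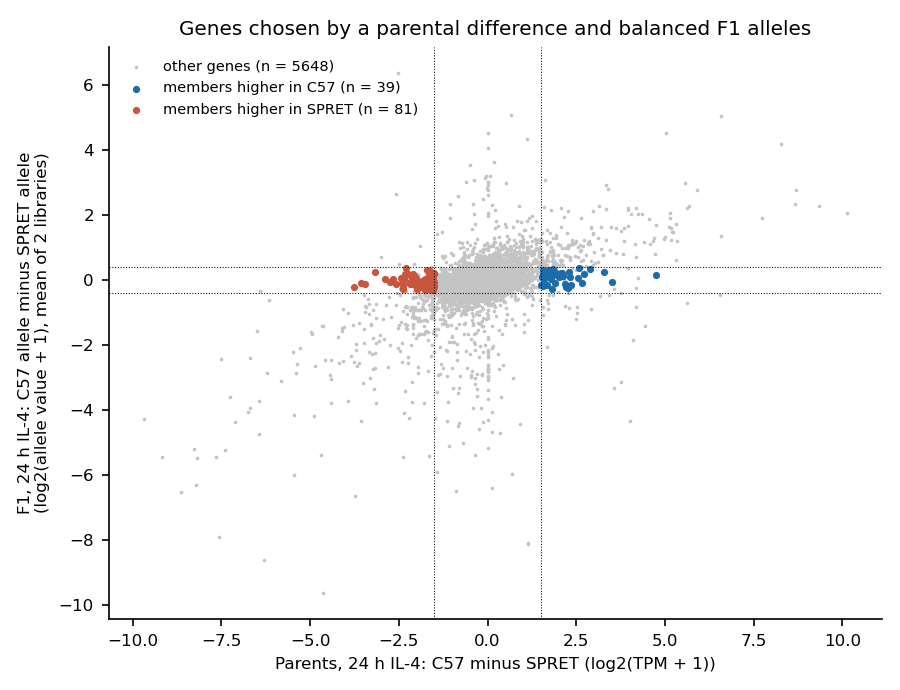
Each point is 1 of the 5768 genes with a mean allele value of at least 10. The x axis is the parental difference at 24 h (C57 minus SPRET, log2(TPM + 1), means of 3 libraries) and the y axis the allele difference in the F1 at 24 h (C57 minus SPRET allele, log2(value + 1), mean of 2 libraries), with dotted lines at 1.5 and 0.4. The 39 genes higher in C57 (blue) and the 81 higher in SPRET (red) occupy the side bands near an allele difference of 0, where the rule placed them.

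The parental difference was then measured in libraries the choice had not used. In the time course at 24 h, 27 of the 39 C57-high genes were called higher in C57, against 9.75% of the 12088 genes tested, and 49 of the 81 SPRET-high genes were called higher in SPRET, against 10.7%. A call required more than 2-fold and an adjusted p under 0.05 from limma over all genes tested. Median differences (C57 minus SPRET, log2(TPM + 1)) were 1.31 and -1.21, beside -0.02 for all genes. Before IL-4 the difference was already there for many of them. In the basal time course 23 of 39 and 38 of 81 were called in their own direction, against 8.88% and 9.92% of genes. Among the basal 5-strain libraries, 34 of 39 and 59 of 81 were called, against 9.52% and 8.58%. At 1 h the counts were 23 and 40, with backgrounds of 9.36% and 10.2%, and at 6 h they were 18 and 44, with 8.54% and 10%. These counts cannot tell fewer cells of a type from less RNA per cell, since the libraries are bulk samples.

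The genes did not all hold across experiments. Of the 120, 46 were called in their own direction at all 4 times, and 34 were called at none of them. At 24 h of the time course, 23 were called that were not called at basal. Some of the 34 are also among 9 genes called neither at 24 h in the time course nor in the basal 5-strain libraries. None of these counts was made over all genes, so whether the 120 differ from other genes in them was not tested. A pair of genes was called in the opposite direction at 24 h. Lsp1, which encodes a leukocyte actin-binding protein, measured 36.1, 37.7 and 45.7 TPM in C57 and 7.96, 9.60 and 8.75 in SPRET in the 5-strain table, but 17.0 and 16.7 TPM in C57 and 95.8 and 96.9 in SPRET in the time course. Its groups did not overlap in either table and lay in opposite orders, with a time course difference of -2.45 (SE 0.06, limma adjusted p = 7.7e-12, n = 2 a strain). Trmt61a, a tRNA methyltransferase subunit, was higher in SPRET in the 5-strain table and higher in C57 by 1.33 (SE 0.21) in the time course.

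**Figure D2:**
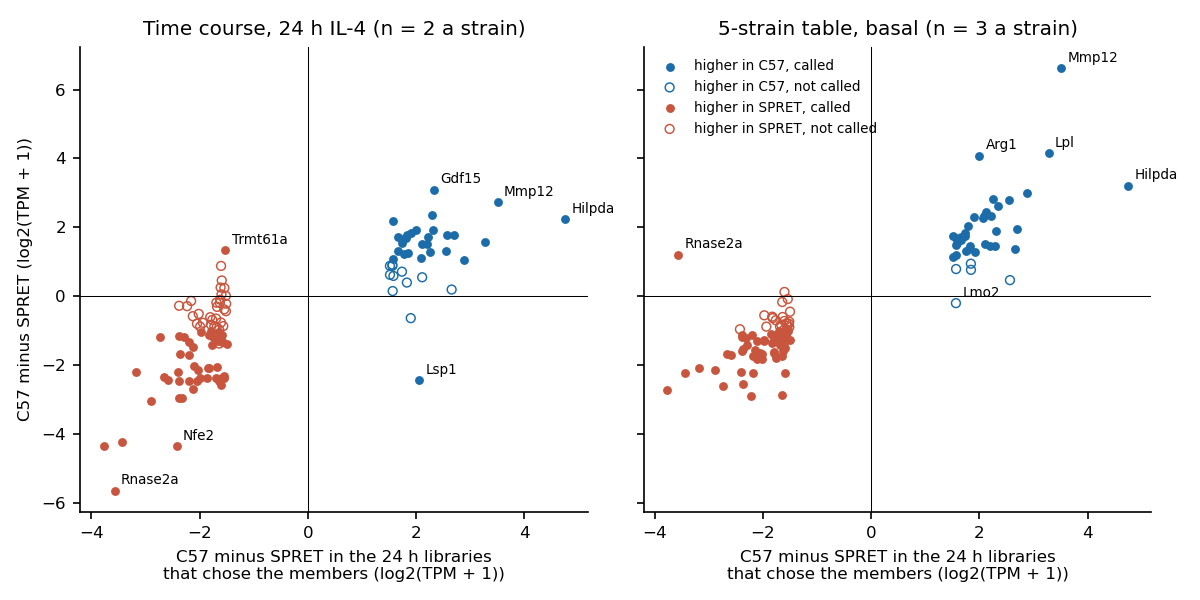
Each point is 1 of the 120 genes. The x axis is the parental difference at 24 h that chose the genes, and the y axis the same difference in other libraries, both as C57 minus SPRET in log2(TPM + 1): the time course at 24 h (left, n = 2 a strain) and the basal 5-strain libraries (right, n = 3). Filled points are genes called at over 2-fold and adjusted p under 0.05. Most points lie on the same side of 0 on both axes, and Lsp1, Trmt61a and, at basal, Rnase2a are called on the opposite side.

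A group of 16 genes acts in cholesterol or fatty acid synthesis or its control, and all of them were higher in SPRET. Acat2 makes acetoacetyl-CoA, and Hmgcs1 joins it with acetyl-CoA into HMG-CoA. Mvk, Mvd and Fdps carry mevalonate to farnesyl pyrophosphate, and Sqle and Lss make squalene epoxide and lanosterol. Cyp51, Msmo1, Hsd17b7 and Sc5d act between lanosterol and cholesterol. Insig1 holds SREBP processing back, Stard4 carries sterol between membranes, and Fasn builds fatty acids. Of the 16, 15 come from a list of 28 synthesis genes, and Acat2 was added after its values were seen.

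Promoter sequence was examined for the group because its members lay together on 1 side. RefSeq promoters (build GRCm38.p6) matched 89 of the 120 genes and 11 of the 16, and the 250 bases before each start were searched on both strands for CCAAT (bound by NF-Y), GGGCGG (an SP1 box) and TCACNCCAC (a sterol regulatory element). CCAAT was present in 10 of the 11 (90.9%), in 60% of the 60 matched genes higher in SPRET, in 27.6% of the 29 higher in C57, and in 33.8% of all 32851 promoters. GGGCGG was present in 10 of the 11, in 65.0%, 41.4% and 32.7% of the same sets. The sterol element was present in 1 of the 11, in 3.33% of the SPRET-high set, in none of the 29 and in 1.05% of all promoters. The set of all promoters, unlike the members, was not cut to 1 promoter a gene or to genes read in these cells. Its shares are therefore not a matched background. A match describes letters and is not a binding site. Only these exact letters within 250 bases were searched, so a missing match does not show that a promoter lacks such an element. The next 5 sequences, in gene orientation and 5′ to 3′, show the first enzymes of the route, a kinase and 2 late sterol enzymes, with every motif match in capitals. Hmgcs1 (chr13:119690101-119690350, plus strand) holds the sterol element 137 bases before its start, and Mvk (chr5:114444019-114444268, plus) holds 5 CCAAT matches. Msmo1 (chr8:64733579-64733828, minus) holds 3 CCAAT matches, Cyp51 (chr5:4104698-4104947, minus) holds 1, and Acat2 (chr17:12960726-12960975, minus) is the member without CCAAT.
Hmgcs1: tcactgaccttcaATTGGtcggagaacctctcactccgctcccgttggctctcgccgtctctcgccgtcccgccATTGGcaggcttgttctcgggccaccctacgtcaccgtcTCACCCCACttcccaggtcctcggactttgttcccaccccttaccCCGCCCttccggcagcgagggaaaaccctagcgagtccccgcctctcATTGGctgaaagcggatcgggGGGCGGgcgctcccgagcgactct
Mvk: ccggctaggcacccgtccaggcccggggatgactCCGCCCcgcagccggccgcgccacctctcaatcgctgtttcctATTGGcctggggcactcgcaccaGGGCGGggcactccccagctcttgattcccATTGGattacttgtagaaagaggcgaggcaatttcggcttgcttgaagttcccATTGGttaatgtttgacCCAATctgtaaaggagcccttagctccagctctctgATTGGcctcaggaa
Msmo1: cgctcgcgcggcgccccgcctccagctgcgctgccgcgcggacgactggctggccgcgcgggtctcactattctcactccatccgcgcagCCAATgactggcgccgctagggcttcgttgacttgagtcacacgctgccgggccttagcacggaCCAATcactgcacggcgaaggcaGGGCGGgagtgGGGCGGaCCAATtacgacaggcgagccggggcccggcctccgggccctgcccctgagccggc
Cyp51: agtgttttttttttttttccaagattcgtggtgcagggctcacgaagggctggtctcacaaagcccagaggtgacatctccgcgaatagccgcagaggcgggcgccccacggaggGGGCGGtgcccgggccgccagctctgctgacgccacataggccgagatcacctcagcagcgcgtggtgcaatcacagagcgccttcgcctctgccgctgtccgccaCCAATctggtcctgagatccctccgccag
Acat2: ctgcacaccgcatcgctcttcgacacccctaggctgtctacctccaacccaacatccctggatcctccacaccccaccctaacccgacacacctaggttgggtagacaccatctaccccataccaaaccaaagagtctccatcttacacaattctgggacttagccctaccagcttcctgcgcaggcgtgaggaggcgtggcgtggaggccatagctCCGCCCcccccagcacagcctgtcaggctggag

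All 16 genes were called lower in C57 than in SPRET at 0, 1, 6 and 24 h of the time course, with median differences of -1.81, -1.65, -1.86 and -2.47 in log2(TPM + 1). With median-ratio scaling or quantile normalization the count at 0 h was 15 and the other counts were 16. In the basal 5-strain libraries 14 of 16 were called lower in C57, and Hsd17b7 (-0.97, SE 0.10) was among the others, under 2-fold. The sum of the 16 genes in C57 was 343 to 359 TPM at 0 h and 195 to 199 TPM at 24 h of the time course, while in SPRET it was 1297 to 1410 and 1314 to 1342 TPM. In the time course the SPRET sums at 0 and 24 h overlap and the C57 sums do not. In the 5-strain table neither overlapped, but its 24 h libraries chose the genes, which favoured low C57 and high SPRET values at 24 h. As a description, the sum there was 265 to 276 TPM at basal and 174 to 183 at 24 h in C57. In SPRET it was 783 to 799 and then 977 to 1019 TPM. In the wider list at 24 h, 24 of the 27 tested genes were called lower in C57 and none higher, and among the 12 that are not members 9 were called lower. In the basal 5-strain libraries 15 of 26 were called lower and 1 higher, against 8.58% and 9.52% of all genes. Most of these 15 are members.

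Acat2 (chr17:12943042-12960725, mm10) measured 4.06, 4.22 and 3.28 TPM in C57 and 49.9, 52.96 and 51.6 TPM in SPRET at 24 h in the 5-strain table. In the time course it measured 8.37 and 7.04 TPM at 0 h and 2.26 and 1.79 at 24 h in C57, against 48.5 and 53.8 and then 54.7 and 56.7 TPM in SPRET. The strains did not overlap at 0 or 24 h of the time course, and the 24 h difference there was -4.23 (SE 0.10, limma adjusted p = 3.29e-12). The 5-strain values at 24 h chose the gene. Cyp51, the lanosterol demethylase (chr5:4080674-4104697), measured 13.8 and 14.01 TPM at 0 h and 8.64 and 9.02 at 24 h in C57, against 76.4 and 81.7 and then 78.3 and 83.0 TPM in SPRET. Its 24 h difference was -3.05 (SE 0.07, limma adjusted p = 4.67e-12), and it overlaps Akap9 on the opposite strand. Hmgcs1 measured 30.1 and 27.3 TPM at 0 h and 16.2 and 16.8 at 24 h in C57, against 86.8 and 92.95 and then 92.9 and 97.8 TPM in SPRET, a 24 h difference of -2.46 (SE 0.06). In all 3 genes the C57 libraries at 24 h were the lowest of the 4 groups.

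**Figure D3:**
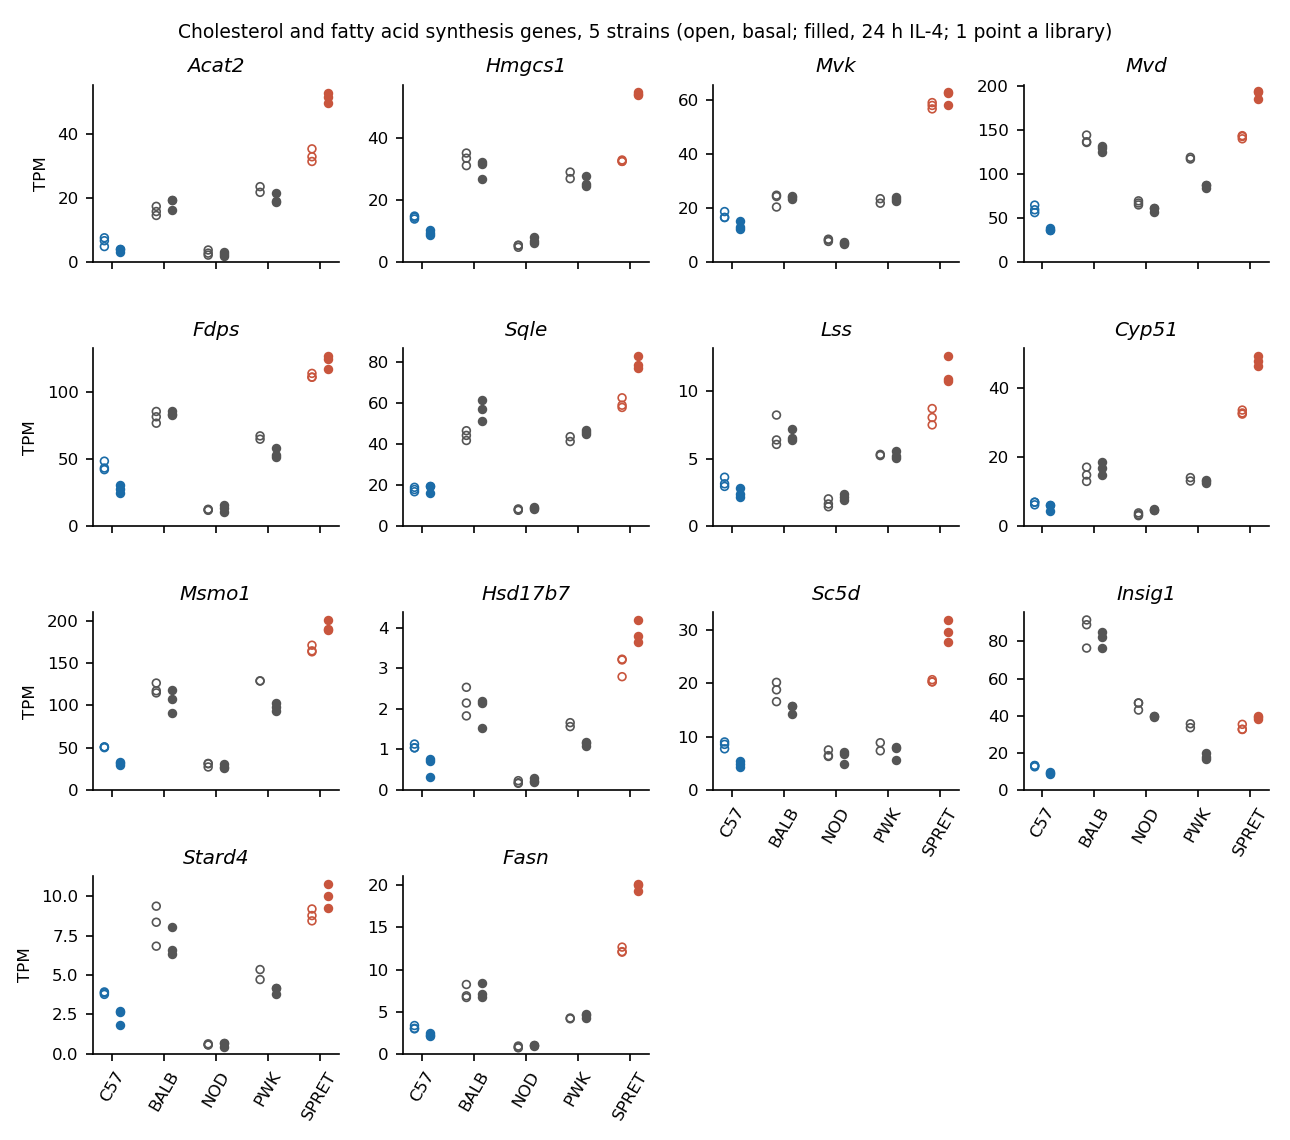
TPM (y axis, each panel with its own scale from 0) of 14 of the 16 cholesterol and fatty acid genes in the 5 strains (x axis), 1 point a library, open at basal and filled at 24 h of IL-4. SPRET lies above C57 in every panel, NOD lies at or below C57 in most, and BALB and PWK lie between in most, with Insig1 at SPRET levels or above in BALB and NOD and in basal PWK. The 24 h values of C57 and SPRET chose the genes.

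A further 10 genes belong to DNA replication and the cell cycle, all higher in SPRET. Mcm2, Mcm3, Mcm5 and Mcm7 are subunits of the replicative helicase, Tk1 and Rrm2 supply deoxynucleotides, Top2a and Birc5 act in mitosis, Foxm1 is a transcription factor of the late cycle, and Mki67 encodes the proliferation marker Ki-67. At 24 h of the time course 9 of the 10 were called lower in C57 and Mcm2 was not (-0.19, SE 0.10). Several lay close to 2-fold at low TPM: with a pseudocount of 5 only 1 was called at 24 h, at a median of -0.67 in place of -1.18, and 8 were with median-ratio or quantile scaling. Leaving out C57 replicate 1 or SPRET replicate 1 lost Birc5, leaving out C57 replicate 2 lost Tk1, and leaving out SPRET replicate 2 lost Tk1 and Top2a. All 10 lay below 0 at 24 h under each pseudocount and scaling. At 0, 1 and 6 h 4 were called each time, but 1, 0 and 1 with a pseudocount of 5, and 2 at 6 h with either other scaling. In the basal 5-strain libraries 9 were called, and 4 with a pseudocount of 5. Their sum at 24 h measured 34.3 to 40.9 TPM in C57 and 166 to 176 in SPRET in the 5-strain table. Those libraries chose the genes. In the time course the sum measured 43.9 to 44.4 against 104 to 114 TPM. Of the wider list of 37 cycle genes, 15 of 36 tested were called lower in C57 at 24 h and 2 higher. The 15 include the 9 called members, which were chosen for being higher in SPRET. Over all genes 10.7% were called lower and 9.75% higher.

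Mki67 (chr7:135689788-135716379) measured 2.54 and 2.55 TPM in C57 and 13.7 and 13.7 in SPRET at 24 h of the time course, a difference of -2.05 (SE 0.08, limma adjusted p = 3.22e-10). Tk1 measured 1.80 and 0.996 TPM in C57 and 3.69 and 5.05 in SPRET, a difference of -1.17 (SE 0.17), while in the basal 5-strain libraries its difference was -2.60 (SE 0.15). Both genes were lower in C57 without overlap at 24 h of the time course. They were lower in the 5-strain table too, whose 24 h libraries chose them for it. The sizes varied with the experiment.

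The other 55 SPRET-high genes are a mixed set. In the time course at 24 h, 24 of them were called lower in C57 and 1 higher, against 10.7% and 9.75% of all genes. In the basal 5-strain libraries 36 were called lower and 1 higher, against 8.58% and 9.52%. Rnase2a, a secreted ribonuclease of the eosinophil-associated family (chr14:51255262-51256112), was induced by IL-4. In SPRET it measured 0.183 and 1.49 TPM at 0 h and 272 and 206 at 24 h of the time course, and in C57 1.07 and 0.424 and then 3.30 and 4.24 TPM. The strains overlapped at 0 h and were apart at 24 h, by -5.65 (SE 0.35, limma adjusted p = 2.49e-08). In the basal 5-strain libraries it was called higher in C57, by 1.21 (SE 0.18), from levels of 1.46 to 2.31 against 0.101 to 0.479 TPM. Reads of this multigene family can be split between near-identical copies, so its level is uncertain.

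Nfe2, a transcription factor known from the erythroid and megakaryocyte lines (chr15:103248212-103255439), measured 1.28 and 1.45 TPM in C57 and 44.6 and 50.4 TPM in SPRET at 24 h of the time course, a difference of -4.36 (SE 0.12, limma adjusted p = 1.05e-11). The summed erythroid and megakaryocyte markers ran the other way, at 361 to 363 TPM in C57 and 18.6 to 18.9 in SPRET, with the 4 globin genes at 0 in both strains. Socs2, an inhibitor of cytokine signalling (chr10:95411490-95416857), measured 1.19 and 1.79 TPM in C57 and 12.8 and 12.3 TPM in SPRET at 24 h, a difference of -2.45 (SE 0.16). Its highest SPRET level came at 1 h, 29.4 and 22.6 TPM, when C57 was at 1.07 and 0.648.

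The 39 C57-high genes hold lipid-handling, matrix, stress and immune genes. Hilpda, which coats lipid droplets and inhibits lipolysis (chr6:29272626-29275449), measured 269, 313 and 282 TPM in C57 and 9.46, 8.83 and 10.9 TPM in SPRET at 24 h in the 5-strain table. In the time course it measured 44.5 and 45.3 against 9.49 and 8.04 TPM, a difference of 2.24 (SE 0.22, limma adjusted p = 2e-06). The groups did not overlap in the time course. Nor did they in the 5-strain table, where the choice of the gene on these values favoured that in advance. Lpl, the secreted lipase that frees fatty acids from lipoproteins (chr8:68880555-68906932), was higher in C57 by 3.03 (SE 0.05) at 0 h and 1.58 (SE 0.05) at 24 h, from 1128 and 1118 against 131 and 143 TPM at 0 h and 1251 and 1224 against 412 and 412 at 24 h.

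Mmp12, the macrophage elastase (chr9:7347374-7360461), had the widest basal difference. It measured 1978 and 1816 TPM in C57 and 27.4 and 23.2 in SPRET at 0 h of the time course, and 5553 and 5707 against 865 and 824 TPM at 24 h. The strains stayed apart while the gap closed from 6.17 (SE 0.09) to 2.74 (SE 0.09, limma adjusted p = 7.4e-11). Gdf15, a stress-induced cytokine, measured 58.3 and 67.7 TPM in C57 and 5.33 and 7.86 TPM in SPRET at 24 h, a difference of 3.09 (SE 0.22). Others called higher in C57 at 24 h of the time course were Tmem132a (2.36), the peptide transporter Slc15a3 (1.91), Neurl2 (1.78), the complement regulator properdin, Cfp (1.76), the antigen-peptide transporter Tap1 (1.30), the stress factor Atf3 (1.29), the endocytic receptor Lrp1 (1.26) and the cell cycle inhibitor Cdkn1a (1.05). Clec12a, an inhibitory lectin receptor, differed by 0.19 (SE 0.11) there and was not called.

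Arg1, the arginase that marks alternative activation (chr10:24915207-24927470), was high in both strains at 24 h and higher in C57. It measured 77.0 and 90.8 TPM at 0 h and 1793 and 2156 at 24 h in C57, against 2.66 and 4.49 and then 579 and 472 TPM in SPRET. The 24 h difference was 1.91 (SE 0.18, limma adjusted p = 1.3e-06). Retnla, a secreted IL-4 target (chr16:48842552-48844461), was low throughout, at 2.81 and 3.13 TPM in C57 and 7.30 and 3.60 TPM in SPRET at 24 h of the time course. That order is opposite to the 5-strain table, where C57 measured 3.90 to 5.10 and SPRET 0.097 to 0.651 TPM, and the time course difference of -0.64 (SE 0.25) was not called. Retnla was listed at 0 in all basal SPRET libraries.

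The response to IL-4 was taken as 24 h minus 0 h in the time course. In C57, 6 of the 39 C57-high genes rose and 1 fell, and 5 of the 81 SPRET-high genes rose and 8 fell, against 2.85% of genes rising and 2.91% falling. In SPRET 7 rose and 4 fell of the 39, and 5 rose and 1 fell of the 81, against 2.62% and 2.99%. The largest rises in C57 were those of Arg1 (4.54, SE 0.18), Ifrd1 (2.51, SE 0.09) and Mmp12 (1.57, SE 0.09), and the largest falls included those of Tuba1a (-1.70, SE 0.12) and Rassf4 (-1.69, SE 0.05). Ifrd1 is a transcriptional coregulator, Tuba1a an alpha-tubulin with near-identical paralogs, and Rassf4 a Ras-association protein. Of the 16 synthesis genes 4 fell in C57, Acat2, Fdps and Stard4 among them, with 16 of 16 below 0 and a median of -0.73. With a pseudocount of 5 the count was 1. None of the 16 was called by limma in SPRET, where 8 lay above 0 and 8 below, and 5 had an unadjusted p under 0.05 (1 above 0 and 4 below).

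The difference between the strains' responses was tested itself. It was called for 22 genes, 7 with a greater value in C57 and 15 with a lower one. By set these were 6 and 5 of the 39 and 1 and 10 of the 81, against 3.14% and 3.09% of genes. The widest were Rnase2a (-5.65, SE 0.50), Mmp12 (-3.44, SE 0.13), Retnla (-2.62, SE 0.35), Tuba1a (-2.41, SE 0.17) and Arg1 (-2.33, SE 0.26) below 0, and Cebpd (2.31, SE 0.29), Gdf15 (2.19, SE 0.31) and Lmo2 (2.01, SE 0.07) above it. Among the 16 synthesis genes, 5 were called below 0, Acat2, Stard4, Fdps and Sqle among them. The count of the 16 was 6 with median-ratio scaling and 0 with a pseudocount of 5, where 15 of 16 still lay below 0. In the 5-strain libraries, whose 24 h values chose the genes, the same difference is a description. It had the time course's sign for 21 of the 22 genes but passed 2-fold for 8 of the 15 below 0 and 1 of the 7 above it, Lmo2 (1.77). Gdf15 turned sign there (-0.27), its C57 response being -1.55 in place of 1.32. The difference was 0.08 for Ifrd1, 0.01 for Zfas1 and -0.38 for Retnla.

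Genes named next were chosen after their values were seen. Cebpd, a C/EBP transcription factor, was at 54.3 and 45.1 TPM in SPRET at 0 h and at 6.24 and 7.77 at 24 h, while C57 went from 6.15 and 8.77 to 6.17 and 4.92 TPM. The strains differed at 0 h by -2.59 (SE 0.20) and by -0.29 (SE 0.20) at 24 h, so the SPRET-high difference of the 5-strain table was not called at 24 h here. Idh3a, a subunit of the mitochondrial isocitrate dehydrogenase, began level, at 22.6 and 22.7 TPM in C57 and 19.6 and 23.0 in SPRET, and ended at 26.5 and 24.0 against 63.4 and 64.3 TPM. Tuba1a also began level and ended apart by -2.31 (SE 0.12), with C57 at 8.49 and 6.51 TPM and SPRET at 42.4 and 39.4. Lmo2, a LIM-domain cofactor, was higher in SPRET at 0 h (184 and 176 against 92.8 and 94.5 TPM) and higher in C57 at 24 h (136 and 143 against 65.0 and 66.4 TPM).

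**Figure D4:**
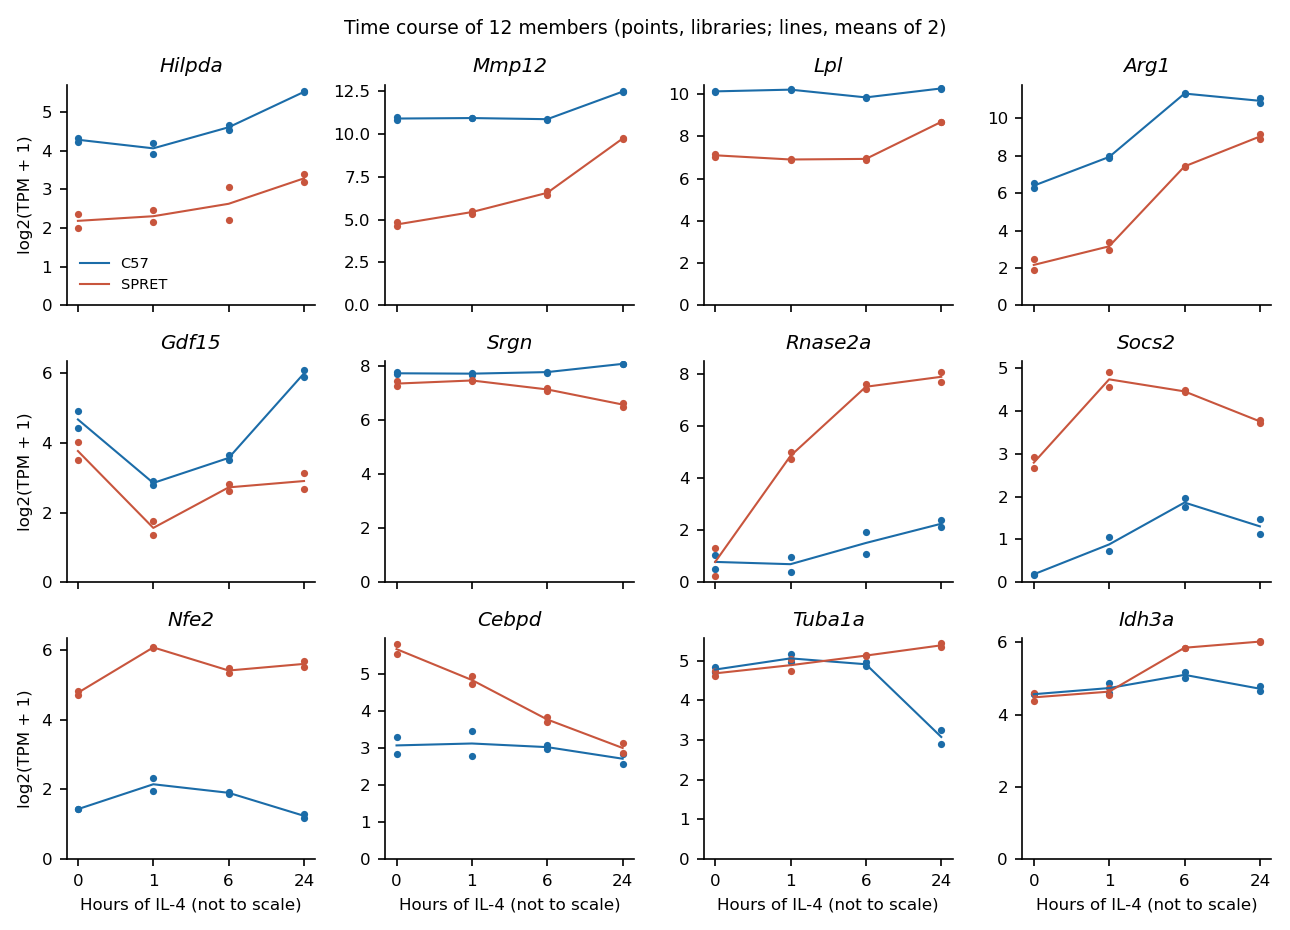
Level in log2(TPM + 1) (y axis) of 12 genes at 0, 1, 6 and 24 h of IL-4 (x axis, hours not to scale) in C57 (blue) and SPRET (red), with a point for each of 2 libraries and lines through the means. Hilpda, Socs2 and Nfe2 stay apart at all times, Rnase2a, Tuba1a and Idh3a start level and end apart, and Cebpd starts apart and ends level.

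In the other strains the 120 genes were placed between SPRET (0) and C57 (1) on the log2(TPM + 1) scale at 24 h, as a description. BALB lay near C57, with median positions of 0.829 for the 39 and 0.864 for the 81 genes, and PWK lay at 0.659 and 0.662. NOD lay at 0.94 and 1.226, beyond C57 for 57 of the 81 SPRET-high genes. The 16 synthesis genes had a median of 0.354 in BALB, with 14 of 16 nearer to SPRET. Their median was 0.544 in PWK and 1.142 in NOD. The 10 cycle genes had medians of 0.866 in BALB, 0.66 in PWK and 1.358 in NOD. The sum of the 16 genes at 24 h was 174 to 183 TPM in C57, 191 to 201 in NOD, 441 to 450 in PWK, 584 to 660 in BALB and 977 to 1019 in SPRET. The sums took that order with no overlap between neighbours. The C57 and SPRET libraries here chose the genes, so those strains' places at the low and high ends were favoured in advance. Gene by gene, NOD lay beyond C57, and so lower than C57, for 12 of the 16. Insig1 lay at the SPRET level in NOD (position -0.011) and beyond it in BALB (-0.52), which raises their sums.

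**Figure D5:**
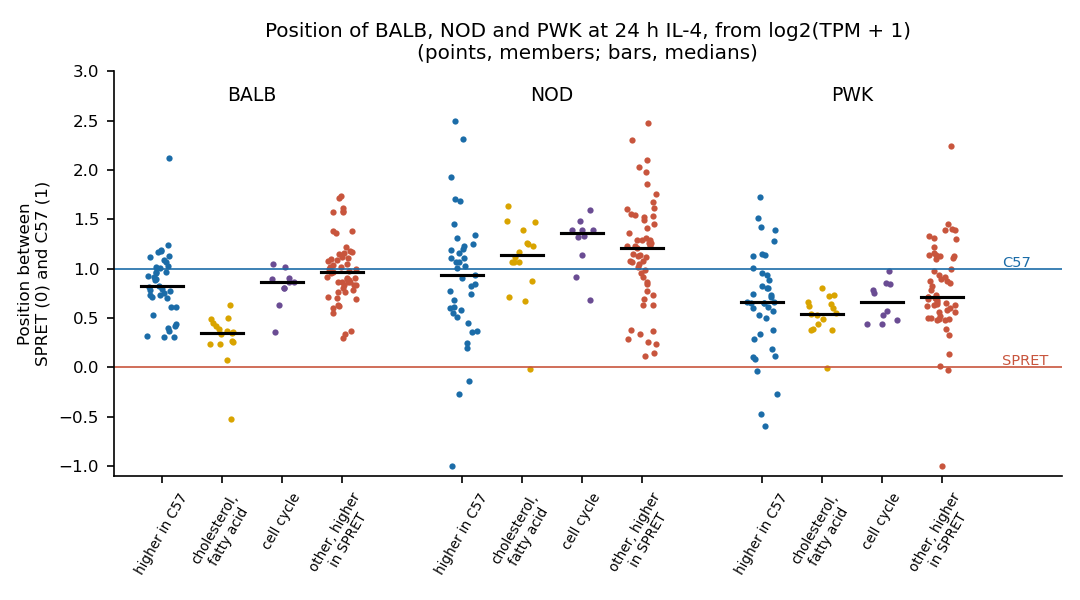
Position of BALB, NOD and PWK at 24 h of IL-4 (y axis, 0 for the SPRET mean and 1 for the C57 mean of log2(TPM + 1)) for each of the 120 genes, split into genes higher in C57, the 16 synthesis genes, the 10 cell cycle genes and the other genes higher in SPRET. Bars are medians, and 3 positions beyond the axis are drawn at its edge (Gdf15 and Arg1 in NOD, Rpl27 in PWK). The synthesis genes of BALB other than Insig1 (-0.52) sit between the 2 lines, and the median of all 16 is 0.354. Those of NOD have a median of 1.142.

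At basal the other strains were tested against C57, with the C57 libraries shared by the 3 comparisons. In BALB 1 of the 39 was called higher and 3 lower, and 13 of the 81 higher and 5 lower, against 2.65% and 2.17% of genes. Of those 13, 10 were synthesis genes, led by Insig1 (2.63, SE 0.07). All 16 lay above 0 in BALB, and 8 were called with median-ratio scaling and 5 with a pseudocount of 5. In PWK 4 were higher and 16 lower of the 39, and 8 higher and 3 lower of the 81, against 4.49% and 8.81%. Of the synthesis genes 5 were called higher there, among them Acat2 (1.69, SE 0.15), Insig1 (1.35), Msmo1 and Sqle, and 8 were called with either other scaling. In NOD 8 were higher and 9 lower of the 39, and 5 higher and 23 lower of the 81, against 5.15% and 11.7%. In NOD, 6 synthesis genes were called lower, among them Fdps (-1.79, SE 0.09), and Insig1 was called higher (1.74, SE 0.07), while 3 were called lower with either other scaling and 1 with a pseudocount of 5.

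The NOD and PWK counts lean on the scaling. The median of all genes was -0.30 in NOD and -0.16 in PWK relative to C57. Of all 120 genes, 13 were called higher and 32 lower in NOD, but 20 and 20 with median-ratio scaling and 18 and 20 with quantile normalization. In PWK 12 were higher and 19 lower, but 19 and 14, and 20 and 17, under these scalings. Single genes were far apart all the same. Gdf15 measured 82 to 116 TPM in basal C57, 847 to 1255 in NOD and 3.51 to 8.91 in BALB, differences of 3.47 (SE 0.24) and -3.77 (SE 0.24) from C57. Arg1 measured 3.02 to 7.54 TPM in basal NOD and 117 to 137 TPM in C57, a difference of -4.34 (SE 0.16). Between 24 h and basal few of the 120 genes were called in these strains: 5 in BALB, 3 in NOD and 7 in PWK, against 2.08%, 1.19% and 2.08% of genes in either direction. Arg1 and Mmp12 rose in all 3 of them.

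The F1 was also read before IL-4, in 2 libraries the choice had not used. The allele difference was under 0.4 in both basal libraries for 28 of the 39 and 58 of the 81 genes, and over 1 in both for 2. These basal counts were not made over all genes. At 24 h, 55.0% of the 5768 genes with a mean allele value of at least 10 passed the limit of 0.4. Balance in the 24 h libraries of the same cross chose the 120, which favoured balance at basal too. The test of the basal alleles took its spread from the basal and 24 h F1 libraries together. The 24 h libraries had chosen these genes for balanced alleles, so a low share of calls was favoured in advance. Across 11498 genes, 2 of the 120 were called, against 7.08% of genes in either direction. These were Socs2 and Snord100, both with the SPRET allele higher. Socs2 measured 1.71 and 0.378 from the C57 allele and 11 and 10.4 from the SPRET allele at basal, a difference of -2.59 (SE 0.25, limma adjusted p = 0.0205), and 14.2 and 13.9 against 14.3 and 11.1 after IL-4. Its alleles were apart at basal and level at 24 h. Snord100, a small nucleolar RNA inside the ribosomal protein gene Rps12, differed by -1.34 (SE 0.17, limma adjusted p = 0.0265). None of the 16 synthesis genes and none of the 10 cycle genes was called by limma, and 2 and 4 of them had an unadjusted p under 0.05. Leaving out either basal library left no call among all genes, leaving out 24 h replicate 1 left none of the 120, and leaving out 24 h replicate 2 left 1.

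The summed alleles of the F1 gave a response of 24 h against basal, as a description. Its median was -0.22 for the 39 and 0.04 for the 81 genes, beside -0.30 for all genes. The F1 response of the 16 synthesis genes had a median of -0.03, and lay between the responses of the parents for 10 and above both for 6. Acat2 read 9.82 and 14.5 from the C57 allele and 15.8 and 19.9 from the SPRET allele at basal, and 25.4 and 25.4 against 32.0 and 23.8 at 24 h. Each allele was higher at 24 h than at basal in both libraries. Arg1 rose by 5.95, and Retnla and Rnase2a, both listed at 0 in basal F1 libraries, read 928 to 1300 and 1885 to 2974 an allele at 24 h. Allele values are scaled differently from the parents' TPM, so these levels cannot be set beside them.

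Loss of Egr2, a transcription factor induced by IL-4, was compared at 24 h. Of the 39 C57-high genes 4 were called higher and 5 lower in Egr2MKO than in Egr2WT, against 2.42% and 2.14% of 12079 genes. Of the 80 SPRET-high genes tested none was called by limma. Without the fold limit, 30 lay above 0 and 13 below at an unadjusted p under 0.05, and the median of all genes was 0.12. The genes called lower were Mmp12 (-2.51, SE 0.09), Phospho1 (-1.70), Gadd45g (-1.53), Slamf8 (-1.27) and Lpl (-1.27, SE 0.06), and those called higher were Tmem8 (1.98), Selenop (1.90), Zfas1 (1.40) and Clec12a (1.26). Mmp12 measured 3697 and 3741 TPM in Egr2WT and 584 and 729 in Egr2MKO. Lpl measured 1216 and 1246 against 505 and 518 TPM. The 16 synthesis genes summed to 659 to 680 TPM in Egr2WT and 617 to 625 in Egr2MKO, and none was called by limma, with 7 at an unadjusted p under 0.05. All 10 cycle genes lay above 0 at an unadjusted p under 0.05, and none passed 2-fold.

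The 120 genes are spread over 20 chromosomes, with 4 on the X chromosome and at most 10 on any 1. Another annotated gene overlaps 59 of them, 25 on the same strand and 44 on the opposite one, and 61 overlap none. Strand settings of the counting were not given in the sources used here, so reads of an overlapping partner could be counted with a gene. Phospho1 and Abi3 overlap each other and are both members. Snord100, Snord65, Mir5046 and Mir7042 lie within other genes, and Rpl27 has many copies, so their values are uncertain. Rpl27 was called higher in basal PWK by 4.89 (SE 0.25).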

How the data were processed

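Poly(A)-enriched RNA from BMDMs was sequenced as strand-marked libraries. The authors aligned reads to strain genomes with STAR, shifted positions to mm10 with MMARGE, and deposited TPM values over exons made with HOMER, with library tag totals in the column headers. For the F1 the authors deposited TPM per allele, each allele column scaled on its own after reads were weighted by the share that overlapped parental mutations. This scaling sets the alleles' totals level, and transcripts without reads of an allele were removed upstream. Intervals from counts were not made, and the total tags per library limit the precision of low TPM. Authors' fold changes and p-values were not used, nor were the F1 C57 × NOD and human tables. Versions of the upstream tools are not given in the sources used here.

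From the deposited TPM, limma 3.58.1 (R 4.3.3) was fitted on log2(TPM + 1) with 1 mean per group and a trended empirical Bayes variance, 1 model per table, for genes of at least 1 TPM in at least 2 libraries. Fold changes are on this scale and understate those of low genes. F1 alleles were compared within libraries as differences of log2(value + 1) at a mean value of at least 1. P-values were adjusted (Benjamini-Hochberg) over all genes, and a call needed over 2-fold and adjusted p under 0.05. Tables were normalized separately, so tests stay within a table. Figures and descriptions used Python 3.11.15 and pandas 2.3.3. On simulated tables with 200 genes changed by 2 in log2, 98% were recovered for the time course at 24 h (11571 genes), 100% for the basal 5-strain comparison of C57 and SPRET (11000 genes), 99.5% for Egr2 (11804 genes) and 81% for F1 basal (11498 genes).

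The 120 genes and all gene lists were chosen with earlier results of these data known. Named genes were the 12 with the largest parental difference in each direction, up to 4 a list, the 3 largest C57 responses up and down, genes called in the F1 at basal or opposite at 24 h, and those nearest a threshold. A few of these are not reported here by name, though the counts, sums and medians hold them. Further names were chosen after their values were seen: the other synthesis and cycle genes, those called in the response difference or Egr2 comparison, Rpl27 and overlapping genes. Alternatives were pseudocounts of 0.1 and 5, no filter or one of 5 TPM, median-ratio and quantile scaling, only the groups compared, a replicate block, and leaving out each library. Replicate numbers did not pair the libraries: correlations of same-numbered deviations were -0.0809 to 0.0776 between the groups compared, other than BALB basal and 24 h (3 pairs, 0.0887 to 0.333, not all over 0.1).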

Additional observations from a re-analysis of the deposited data

Results flagged for a closer look

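The response to IL-4 differed between C57 and SPRET for 22 of the 120 genes, and 21 of them are given. Each was flagged because the difference between the 2 strains' responses was itself past 2-fold with a limma adjusted p under 0.05 (an interaction contrast of the time course, 2 libraries a group). Values are C57 response minus SPRET response in log2(TPM + 1).

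Lower in C57 were Rnase2a (-5.65), Mmp12 (-3.44), Retnla (-2.62), Tuba1a (-2.41) and Arg1 (-2.33). Synthesis genes on this side were Acat2 (-1.65), Stard4 (-1.35), Fdps (-1.09) and Sqle (-1.04). Lpl (-1.44), Idh3a (-1.39), Rassf4 (-1.24), Atf3 (-1.22) and Nfe2 (-1.02) were on it too. Greater in C57 were Cebpd (2.31), Gdf15 (2.19), Lmo2 (2.01), Selenop (1.46), Ifrd1 (1.46), Zfas1 (1.33) and Srgn (1.12). In the 5-strain libraries the same difference, with no test, kept its sign for 21 of the 22 but was -0.27 for Gdf15, 0.08 for Ifrd1, 0.01 for Zfas1 and -0.38 for Retnla.

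The background of such calls was 3.14% of genes above 0 and 3.09% below. In the 5 genes Rnase2a, Mmp12, Retnla, Arg1 and Lpl the SPRET level began below or level with C57 and rose more. Nfe2 fell under 2-fold with quantile normalization (-0.94), without C57 replicate 1 at 24 h (-0.97), without SPRET replicate 2 at 24 h (-0.93) and without SPRET replicate 1 at 0 h (-0.96). Without C57 replicate 1 at 0 h Fdps (-0.99) and Sqle (-0.96) fell under 2-fold, and without SPRET replicate 1 at 0 h Sqle did (-0.93). Acat2, Fdps, Sqle, Stard4 and Nfe2 fell under 2-fold with a pseudocount of 5.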

How the results depend on the processing

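Of the calls among the 120 genes, none changed sign under any alternative run, in the 15 comparisons of TPM. The count called at 24 h of the time course was 76 in their own direction (73 to 77 when each library was left out), and in the basal 5-strain libraries 93 (91 to 94). With a replicate block these counts were 76 and 93, and the response difference stayed at 22 (20 to 27 without single libraries). The block moved no count by over 1.5 times. A pseudocount of 5 gave 12 in place of 20 calls for the C57 response, 10 in place of 22 for BALB and 22 in place of 45 for NOD against C57 at basal. A pseudocount of 0.1 gave 8 in place of 5 for the BALB response. The F1 basal count of 2 became 1 at a mean allele value of 10, and 0 to 1 without single libraries. The rule itself gave 365 genes at a parental threshold of 1, 49 at 2, 75 at an allele threshold of 0.3 and 63 with a pseudocount of 5, and 113 to 125 without single libraries. Taking the parental difference from the time course gave 114 genes, 51 of them shared. The NOD response split was 2 up and 1 down, and 2 and 2 with median-ratio scaling. The cause of these shifts was not tested. Low TPM and unknown allele depth limit genes such as Retnla and Socs2.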

Other observations

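The F1 response to IL-4 could be set beside those of both parents in the time course, as values with no test. Among the 39 genes higher in C57, the F1 response lay below both parents for 22, between them for 9 and above both for 8. Among the 81 genes higher in SPRET it lay below both for 21, between for 29 and above both for 31. Over all genes the median response was -0.30 in the F1, and in the time course -0.02 in C57 and -0.05 in SPRET. The F1 median of all genes thus lay below both parental medians, and the counts were not adjusted for this. The same counts were not made over all genes, so whether either set differs from other genes was not tested. Selenop, a selenium transport protein, changed by -2.37 in the F1, by -0.38 in C57 and by -1.84 in SPRET. Clec12a changed by -1.69 in the F1, by -1.65 in C57 and by -2.00 in SPRET. Mmp12 rose by 1.40 in the F1, by 1.57 in C57 and by 5.01 in SPRET. All changes are in log2(value + 1), and F1 and parental values were scaled differently.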
